A study of Mus musculus with 2 samples.

Results

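The 9 genes described here make up a matrix-degrading protease system and its inhibitors: the matrix metalloproteinases Mmp2, Mmp3, Mmp13 and Mmp14, the plasminogen activator Plau and its receptor Plaur, and the tissue inhibitors of metalloproteinases Timp1, Timp2 and Timp3. They were chosen by name, with earlier results of these data known, and are 9 of the 31053 genes in the count tables. Single-cell RNA was measured by 10x droplet sequencing in 2 libraries, replicates 1 and 2, of mouse brain tumour (strain C57BL/6, mutant IDH1, labelled mIDH1) at the symptomatic stage. Both libraries belong to the same group, so cell types within the tumour are compared and not conditions. The labels name no allele besides mutant IDH1, no promoter or cell type that drives it, and do not say whether the libraries come from separate animals. The p-values therefore reflect only spread between these libraries, estimated over all gates together, which may be technical. A small p-value can stand beside libraries that disagree, as for Mmp13 in the Pdgfrb split below. Each cell was assigned by gate genes that are not among the 9. The gates were tumour (at least 1000 Nras UMIs per 1000000 UMIs of the cell), split into Pdgfrb-positive (at least 1 UMI) and Pdgfrb-negative cells, neutrophil (at least 10 S100a8 and S100a9 UMIs together), monocyte (at least 1 Ly6c2 and 5 Lyz2 UMIs), DC for dendritic cells (at least 1 Ccr7 UMI), basophil (at least 1 Mcpt8 UMI), T (at least 1 Cd3e UMI) and macrophage/microglia (at least 5 C1qa UMIs). A UMI is a unique molecular identifier, which counts 1 captured RNA molecule, so levels of different genes were compared without scaling for length.

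Matrix metalloproteinases are zinc-dependent enzymes that cut collagens and other matrix proteins, and most are secreted in an inactive form. Mmp2 (gelatinase A) cuts denatured and basement membrane collagen, Mmp3 (a stromelysin) cuts a wide range of matrix proteins and activates other metalloproteinases, Mmp13 is a collagenase, and Mmp14 is a collagenase anchored in the cell membrane that activates Mmp2. Plau (urokinase) cuts plasminogen to plasmin while bound to its receptor Plaur, and plasmin in turn cuts matrix and activates metalloproteinases. The Timp genes encode inhibitors of metalloproteinases: Timp1 and Timp2 are secreted, Timp2 also takes part in the activation of Mmp2 by Mmp14, and Timp3 is held in the matrix. In gliomas this system is known for its part in invasion of brain tissue, and both tumour cells and the microglia and macrophages around them are known sources.

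All 9 members are protein-coding genes with positions in GRCm38: Mmp2 (ENSMUSG00000031740) at chr8:92827291-92853420, Mmp3 (ENSMUSG00000043613) at chr9:7445822-7455975, Mmp13 (ENSMUSG00000050578) at chr9:7272514-7283331, Mmp14 (ENSMUSG00000000957) at chr14:54431612-54445364, Plau (ENSMUSG00000021822) at chr14:20836660-20843385, Plaur (ENSMUSG00000046223) at chr7:24462484-24475968, Timp1 (ENSMUSG00000001131) at chrX:20870166-20874735, Timp2 (ENSMUSG00000017466) at chr11:118301069-118355740 on the minus strand, and Timp3 (ENSMUSG00000020044) at chr10:86300372-86349506. Mmp13 and Mmp3 lie in 1 cluster of metalloproteinase genes on chromosome 9. Timp1 lies within Syn1 and Timp3 within Syn3, both on the opposite strand, and Cep295nl lies within Timp2 on the same strand. Of the host genes, Syn1 had 31 UMIs and Syn3 74 UMIs over all tumour cells, far fewer than Timp1 and Timp3. Strand use in the counting is not given in the sources used here.

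RefSeq promoters (250 bases before to 50 after the gene start, GRCm38.p6) were found for 7 members, all but Mmp2 and Plau. The AP-1 letters TGAGTCA, or their reverse complement TGACTCA, were searched on both strands, because AP-1 is a known regulator of protease genes. They occur in 3 of the 7, Mmp3, Mmp13 and Plaur, and in 5.2% of the 32851 promoters of the same length. The 3 promoters with the letters are printed 5′ to 3′. Those of Mmp14, Timp1, Timp2 and Timp3 hold none, and Timp1 had the most tumour UMIs of all members. The capitals mark the AP-1 letters, which begin 46 bases before the start of Mmp3 (chr9:7445572-7445871), 35 bases before that of Mmp13 (chr9:7272264-7272563) and 69 bases before that of Plaur (chr7:24462233-24462532), all on the plus strand. A match is a description of the letters and not a measured site.
Mmp3: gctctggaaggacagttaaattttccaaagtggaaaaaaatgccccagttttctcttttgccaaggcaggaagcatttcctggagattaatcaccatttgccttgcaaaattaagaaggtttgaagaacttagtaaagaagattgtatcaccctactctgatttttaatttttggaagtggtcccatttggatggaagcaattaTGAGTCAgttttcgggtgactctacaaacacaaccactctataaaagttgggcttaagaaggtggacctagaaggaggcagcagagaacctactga
Mmp13: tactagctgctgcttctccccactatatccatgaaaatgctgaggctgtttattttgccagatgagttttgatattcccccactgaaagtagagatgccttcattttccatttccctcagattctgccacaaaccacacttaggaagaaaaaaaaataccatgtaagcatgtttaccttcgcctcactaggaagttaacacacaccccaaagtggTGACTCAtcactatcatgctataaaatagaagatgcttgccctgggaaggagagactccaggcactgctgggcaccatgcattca
Plaur: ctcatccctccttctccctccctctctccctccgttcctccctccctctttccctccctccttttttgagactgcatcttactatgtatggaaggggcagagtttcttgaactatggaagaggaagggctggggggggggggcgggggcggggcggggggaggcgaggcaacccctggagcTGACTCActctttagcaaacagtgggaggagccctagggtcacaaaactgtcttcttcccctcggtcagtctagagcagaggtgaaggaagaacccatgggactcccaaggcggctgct

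The libraries held 2704 and 2266 barcodes with 63001350 and 58915133 UMIs. After cells with under 200 genes or over 15% mitochondrial UMIs were removed, 3186 cells with a median of 33718.5 UMIs remained, and 2618 of them passed exactly 1 gate and were used. Each gate is given with its cells in replicates 1 and 2. The tumour gate held 986 and 830 cells (317 and 300 Pdgfrb-positive, 669 and 530 Pdgfrb-negative), the neutrophil gate 15 and 16, the monocyte gate 29 and 35, the DC gate 43 and 33, the basophil gate 74 and 64, the T gate 25 and 27, and the macrophage/microglia gate 231 and 210. The median depth differed widely, with 44092 UMIs per tumour cell and 2074 to 9162.5 in the immune gates. A count of 0 therefore allows up to 0.0324 UMIs per 1000000 (CPM, 3 UMIs over the gate) in tumour cells, but up to 42.5 CPM in neutrophils and 9.43 CPM in T cells. Such limits and the counting intervals below cover counting error only. The libraries shared 10 barcodes, and none of them was in exactly 1 gate in both. The tumour markers Sox2, Nes, Tnc, Cdkn2a and Il34, none of them a gate gene, were all at 10 CPM or more in tumour cells. Their sums were 575 and 565 CPM there, against 15.2 and 10.5 CPM in macrophages/microglia. The marker lists of the neutrophil, monocyte, DC, basophil and T gates include their own gate genes, so gating fixed part of those sums. Of 4 DC markers, 3 were detected in the DC gate. The gates were not pure, and basophil-gated cells held 216 and 258 CPM of tumour markers and 1277 and 1330 CPM of monocyte markers.

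Sums of raw UMIs per library and gate were compared in edgeR with the library as a block, over 13477 genes between gates and 13083 genes for the Pdgfrb split. Genes with a log2 fold change of 1 or more in size and an adjusted p (Benjamini-Hochberg) below 0.05 were called higher or lower, and every adjusted p given is from edgeR's quasi-likelihood test unless DESeq2 is named. Folds that start with "at least" set a gate with no UMI at its limit of 3 UMIs. The scaling between gates mattered for the split of all genes: with relative log expression (RLE) factors in place of TMM, 62.7% of called genes were higher in tumour cells than in macrophages/microglia (52.5% with TMM), 69.9% in tumour cells than in monocytes (55.3%) and 40.4% in neutrophils than in monocytes (22.6%). With UMI totals alone, 48.0% were higher in neutrophils than in monocytes and 61.8% in DCs than in macrophages/microglia (44.4% with TMM). RLE factors moved the median log2 fold change of all genes to 0.50 in the first of these comparisons (0.19 with TMM), 1.08 in the second (0.65) and -0.65 in the third (-1.11), and no member changed direction under either scaling.

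**Figure D1:**
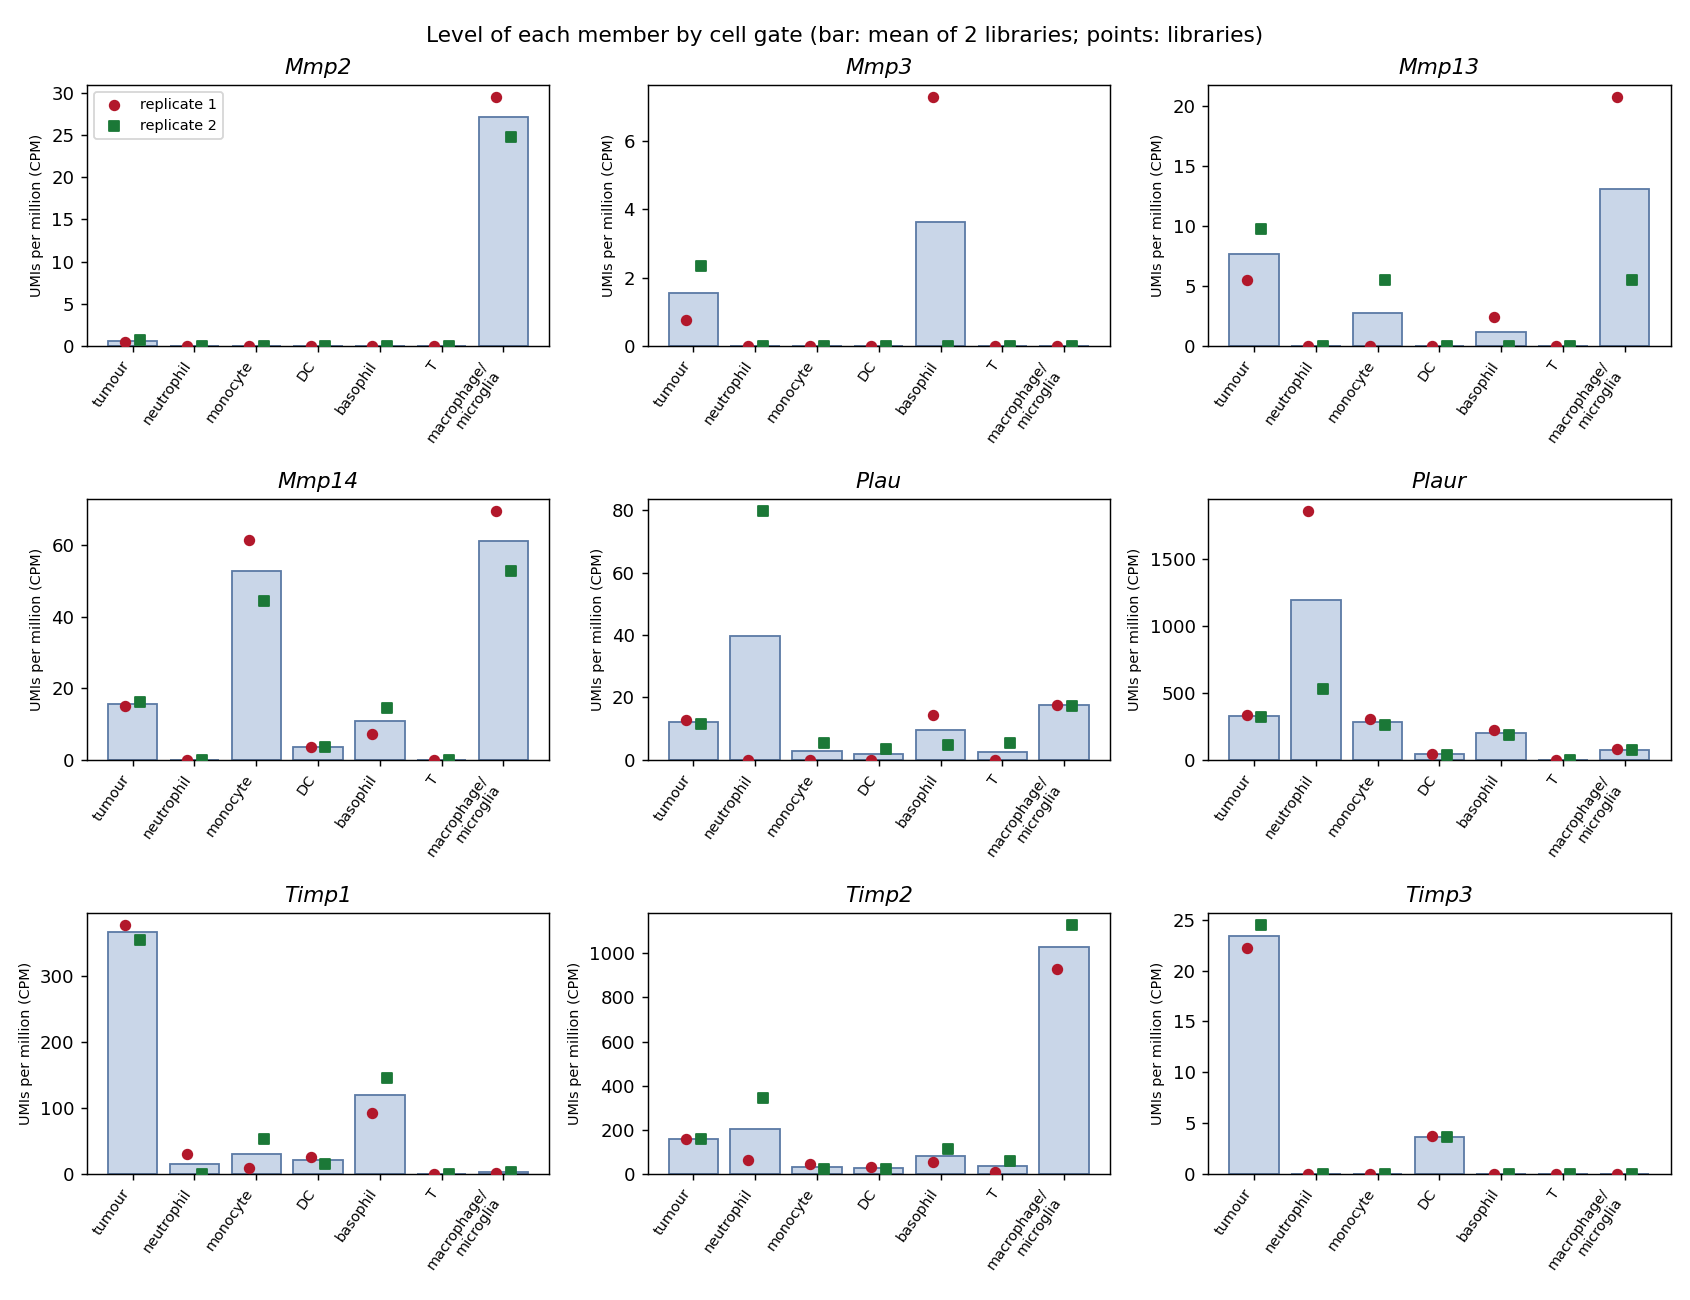
Level of each of the 9 genes (y axis, CPM, a separate scale from 0 in each panel) in 7 cell gates (x axis), with bars for the mean of 2 libraries and points for replicates 1 and 2. Timp1 and Timp3 stand out in tumour cells, and Timp2 and Mmp2 in macrophages/microglia. Mmp14 is highest in macrophages/microglia and monocytes, which overlap, and the neutrophil points for Plaur lie far apart at 1853 and 531.

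Between these 2 gates, tumour cells held more of the receptor Plaur and the inhibitors Timp1 and Timp3, and macrophages/microglia more Mmp2, Mmp14 and Timp2. Plaur and Mmp14 were not particular to them. Plaur was highest in neutrophils, though on few cells, and not called between tumour cells and monocytes. Mmp14 overlapped between monocytes and macrophages/microglia. Of the 9 genes, 4 were called higher and 4 lower in tumour cells than in macrophages/microglia, where 46.8% of all 13477 genes were called (24.6% higher and 22.2% lower). The calls went in both directions. Mmp3 and Timp3 had no macrophage/microglia UMI, Mmp13 went opposite ways in the 2 libraries, and DESeq2 called 4 members. The members were chosen with earlier results known, so their count against all genes is a description. The median log2 fold change of the 9 members was -0.69, against 0.19 over all genes. Whether a gate has less of an RNA per cell or holds other cell states was not separated by these sums.

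Among the proteases, Mmp2 was found mainly in macrophages/microglia. It measured 0.441 and 0.669 CPM in tumour cells of replicates 1 and 2 (0.555 ± 0.161, SD, n = 2), against 29.4 and 24.7 CPM in macrophages/microglia (27.1 ± 3.33, n = 2). Both macrophage/microglia values lay far above both tumour values. Mmp2 was lower in tumour cells by a log2 fold change of -5.76 ± 0.37 (SE, adjusted p = 4.48e-54), and the pooled level in macrophages/microglia was 49.1 times that in tumour cells (95% counting interval 35.1 to 69.6). DESeq2 gave a similar fold but an adjusted p of 0.359. The 118 Mmp2 UMIs of macrophages/microglia were spread over 82 cells with at most 3 in any cell. Cells with a UMI of Cx3cr1, a receptor gene of microglia, held 30.9 and 25.8 CPM, against 7.29 and 7.78 CPM in gated cells without one. No Mmp2 UMI was found in the neutrophil, monocyte, DC, basophil or T gates. Their limits of 3.64 to 42.5 CPM lie above the tumour level, so their order below tumour cells could not be set. The neutrophil limit of 42.5 CPM also lies above the macrophage/microglia level, so neutrophils could not be placed below that gate either.

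Mmp14, which activates Mmp2, was also lower in tumour cells than in macrophages/microglia. Tumour cells held 15.1 and 16.2 CPM (15.6 ± 0.833, n = 2), against 69.4 and 52.6 CPM in macrophages/microglia (61.0 ± 11.9, n = 2). The groups did not overlap, and Mmp14 was lower in tumour cells (log2 fold change -2.15 ± 0.16, adjusted p = 1.96e-38). Monocytes, with 61.3 and 44.2 CPM, overlapped with macrophages/microglia. Basophil-gated cells held 7.27 and 14.6 CPM (3 and 6 UMIs), both below the tumour values, and DCs 3.71 and 3.62 CPM from 1 UMI in each library. Neutrophils and T cells had none, which allows up to 42.5 and 9.43 CPM.

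Mmp3 was found in tumour cells at a low level. It measured 0.777 and 2.34 CPM in tumour cells (37 and 105 UMIs) and had no UMI in macrophages/microglia. That makes it at least 2.23-fold higher in tumour cells (adjusted p = 0.0296). The call was lost without either macrophage/microglia library (adjusted p = 0.134 without replicate 1 and 0.315 without replicate 2). In basophil-gated cells all 3 Mmp3 UMIs came from 1 cell of replicate 1, and the other gates had none.

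Mmp13 was found mainly in tumour cells and macrophages/microglia and differed between libraries. Tumour cells held 5.50 and 9.74 CPM (262 and 437 UMIs), against 20.7 and 5.49 CPM in macrophages/microglia (45 and 12 UMIs). The order of the gates was opposite in the 2 libraries, so the groups overlapped. The pooled fit called Mmp13 lower in tumour cells at the edge of the threshold (log2 fold change -1.01 ± 0.30, adjusted p = 0.00127). The sign turned without replicate 1 of tumour cells (0.58) or of macrophages/microglia (0.66) and when barcodes with no Malat1 UMI were left out (0.18), and DESeq2 gave -0.54 with an adjusted p of 0.819. The fold was smaller than the threshold with RLE factors (-0.70) and with UMI totals alone (-0.82). In macrophages/microglia the 57 Mmp13 UMIs came from 10 cells, 25 of them from 1 cell of replicate 1, and the level without the top cell of each library was 9.21 and 2.32 CPM. Gated cells with no Cx3cr1 UMI, 68 of 441, held 233 and 31.1 CPM, against 6.38 and 3.89 CPM in Cx3cr1-positive cells. Gated barcodes with no UMI of Malat1, a nuclear RNA, held 126 and 7.0 CPM, against 6.77 and 5.13 CPM in those with one.

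In the plasminogen branch the receptor far exceeded the activator. Plau measured 12.9 and 11.7 CPM in tumour cells (12.3 ± 0.884, n = 2), against 17.5 and 17.4 CPM in macrophages/microglia. The groups did not overlap, but the log2 fold change of -0.69 ± 0.26 (adjusted p = 0.013) was under the fold threshold and Plau was not called. Plaur measured 338 and 317 CPM in tumour cells (328 ± 14.9, n = 2), against 80.0 and 73.2 CPM in macrophages/microglia (76.6 ± 4.78, n = 2). Both tumour values lay above both macrophage/microglia values, and Plaur was higher in tumour cells (log2 fold change 1.91 ± 0.20, adjusted p = 5.4e-21). In the order of Plaur levels neutrophils came first, then tumour cells, monocytes, basophil-gated cells, macrophages/microglia and DCs. No neighbours in that order overlapped between libraries. The first place rested on few cells. Without the top cell of each library, neutrophils held 1432 and 194 CPM. The replicate 2 value then lay below those of tumour cells and monocytes. T cells had no Plaur UMI in 52 cells, which allows up to 9.43 CPM.

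The 3 inhibitors were placed in different cells. Timp1 measured 377 and 355 CPM in tumour cells (366 ± 15.6, n = 2), against 1.38 and 2.75 CPM in macrophages/microglia (3 and 6 UMIs). It was higher in tumour cells by a log2 fold change of 7.27 ± 0.25 (adjusted p = 2.38e-182), the largest called fold among members with UMIs in both gates. Timp3 measured 22.2 and 24.5 CPM in tumour cells (23.4 ± 1.59, n = 2) and had no UMI in macrophages/microglia. It was at least 33.9-fold higher in tumour cells (adjusted p = 1.33e-23), though DESeq2 gave an adjusted p of 0.176. Among the 6 immune gates Timp3 UMIs were found in DCs alone, 1 in each library. A count of 0 in neutrophils allows up to 42.5 CPM, which lies above the tumour level of Timp3. The DC gate also held 20 UMIs of the host gene Syn3. Timp2 ran the other way, with 158 CPM in each library of tumour cells, against 930 and 1128 CPM in macrophages/microglia (1029 ± 140, n = 2). It was lower in tumour cells (log2 fold change -2.88 ± 0.20, adjusted p = 4e-46), and no other gate overlapped with the macrophage/microglia values.

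Proteases were set against inhibitors by UMIs, with Mmp2, Mmp3, Mmp13, Mmp14 and Plau in 1 sum and the 3 Timp genes in the other. Plaur, a receptor, is in neither. Plau is a plasminogen activator and not a metalloproteinase, so the ratio does not pair it with its own inhibitors. Within these genes, Timp UMIs exceeded protease UMIs in every gate and library but replicate 1 of monocytes. Proteases outside the sum were not counted, and some gates held many of their UMIs. Neutrophils had 74 Mmp9 and 14 Mmp8 UMIs, against 16 Timp UMIs, and DCs 43 Mmp25 UMIs, against 27 Timp UMIs. Tumour cells had 4098 Plat UMIs, against 3475 UMIs of the summed proteases. Macrophages/microglia had 358 Mmp12 and 405 Adam8 UMIs, against 517 UMIs of the summed proteases. Tumour cells had 0.0622 and 0.0755 protease UMIs per Timp UMI, against 0.147 and 0.0886 in macrophages/microglia. The 298 protease UMIs of macrophages/microglia in replicate 1 included 25 and 13 Mmp13 UMIs from single cells. Proteases made up 5.86% (exact 95% interval 5.58 to 6.14) and 7.02% (6.71 to 7.34) of these UMIs in tumour cells, against 12.8% (11.5 to 14.3) and 8.14% (7.14 to 9.24) in macrophages/microglia. Monocytes had 1.15 and 0.769 protease UMIs per Timp UMI, from 15 against 13 UMIs in replicate 1 and 20 against 26 in replicate 2. Proteases were 53.6% (33.9 to 72.5) and 43.5% (28.9 to 58.9) of the monocyte UMIs, and Mmp14 gave 100% and 80.0% of the protease UMIs among them. The inhibitors behind these ratios were not the same ones. In tumour cells Timp1 was 67.7% and 66.0% of Timp UMIs and Timp2 28.3% and 29.4%, while in macrophages/microglia Timp2 was 99.9% and 99.8%. Among tumour protease UMIs, Mmp14 gave 43.4% and 39.9%, Plau 37.2% and 28.7% and Mmp13 15.9% and 24.0%. Plau gave 12.8% and 17.4% of protease UMIs in macrophages/microglia. The ratio in tumour cells was 0.0685 over both libraries and 0.040 without Mmp14. The ratio counts RNA molecules and says nothing of enzyme activity.

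**Figure D2:**
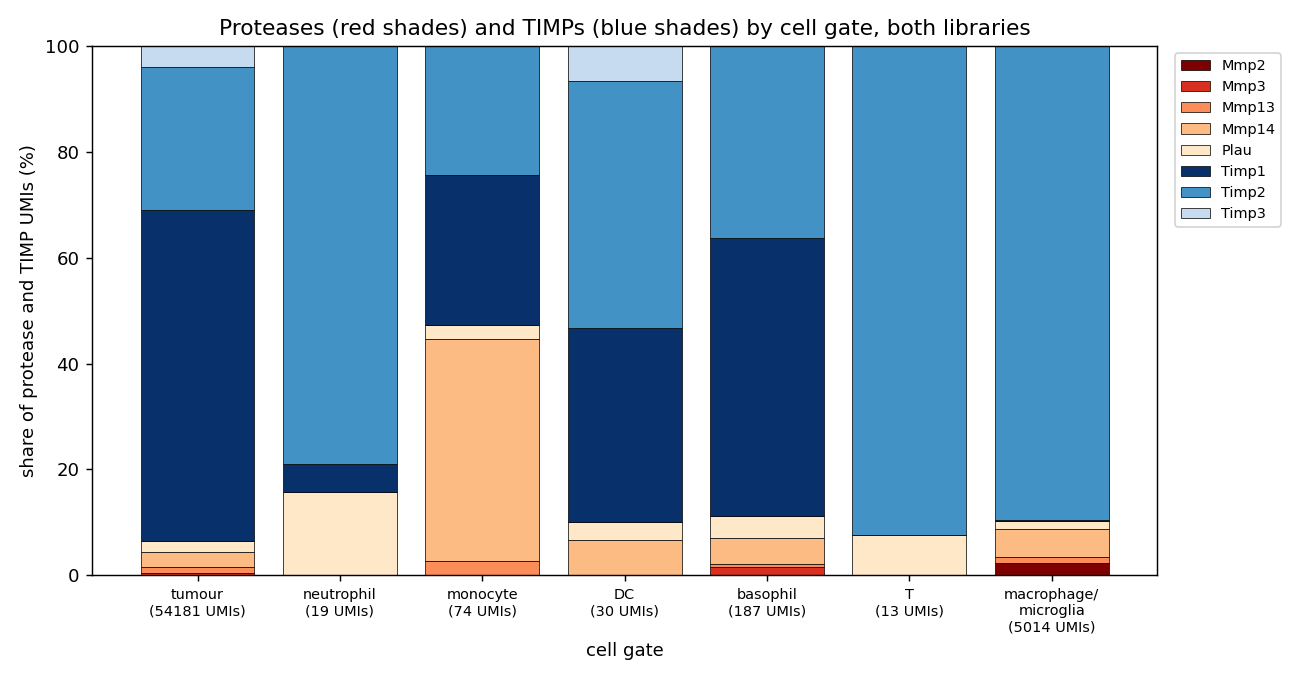
Share of protease and Timp UMIs (y axis, percent, both libraries together) held by each of 8 genes in each cell gate (x axis, with the number of UMIs in brackets); red shades are proteases and blue shades inhibitors. Blue fills most of every column and is closest to even with red in monocytes, with Timp1 as the main shade in tumour cells and Timp2 in macrophages/microglia. Other proteases, such as Mmp9 in neutrophils, are not counted.

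Within the tumour, cells with a UMI of Pdgfrb, a growth factor receptor common in mural cells and fibroblasts, were set against cells without one. Of the 9 genes, 2 proteases were called higher in Pdgfrb-positive cells, Mmp2 and Mmp3, and none lower, where 1.33% of all 13083 genes were called (0.894% higher and 0.436% lower). The median log2 fold change of the 9 was 0.47, against -0.01 over all genes. Both calls rested on replicate 2. Mmp2 measured 0.474 and 1.49 CPM in Pdgfrb-positive cells (8 and 28 UMIs), against 0.423 and 0.0768 CPM in Pdgfrb-negative cells (13 and 2 UMIs). The groups did not overlap, but in replicate 1 they were nearly equal (log2 fold change over both, 1.77 ± 0.52, adjusted p = 0.0162). Of the 28 UMIs, 13 came from 1 cell of replicate 2 that had 9 Pdgfrb UMIs. Mmp3 measured 0.889 and 4.73 CPM in Pdgfrb-positive cells (15 and 89 UMIs), against 0.715 and 0.614 CPM in Pdgfrb-negative cells (22 and 16 UMIs). Again replicate 2 was far apart and replicate 1 was not (log2 fold change 1.78 ± 0.40, adjusted p = 0.000385). Without replicate 2 of Pdgfrb-positive cells the log2 fold changes were 0.52 for Mmp2 and 0.07 for Mmp3, without replicate 2 of Pdgfrb-negative cells 0.92 and 0.58, all with an adjusted p of 1, and DESeq2 called neither (adjusted p = 1 for both). Without the library block Mmp2 had an adjusted p of 0.0878, and with cells of several gates kept 0.167.

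Mmp13 and Timp3 came close to the fold threshold. Mmp13 measured 4.74 and 16.9 CPM in Pdgfrb-positive cells, against 5.92 and 4.61 CPM in Pdgfrb-negative cells, so the libraries went opposite ways (log2 fold change 0.89 ± 0.16, adjusted p = 3.28e-06, not called). It was called higher without replicate 1 of Pdgfrb-positive (1.96) or of Pdgfrb-negative cells (1.41) and with cells of several gates kept (1.42). In replicate 2, 98 of the 317 Mmp13 UMIs of Pdgfrb-positive cells came from 1 cell with 14 Pdgfrb UMIs, which also held 20 Mmp3 UMIs. Timp3 measured 32.7 and 31.4 CPM in Pdgfrb-positive cells, against 16.5 and 19.5 CPM in Pdgfrb-negative cells. It did not overlap in either library and was not carried by 1 replicate, but its log2 fold change of 0.75 ± 0.09 (adjusted p = 1.54e-14) stayed under the threshold. With at least 2 Pdgfrb UMIs against 0, Timp3 was called higher (1.13, adjusted p = 1.65e-17), and so was Mmp13 (1.38, adjusted p = 1.62e-11). Mmp14 measured 19.1 and 19.8 CPM in Pdgfrb-positive cells, against 12.8 and 13.7 CPM in Pdgfrb-negative cells, without overlap (log2 fold change 0.47 ± 0.10, adjusted p = 0.000152, not called). Plau, Plaur, Timp1 and Timp2 had log2 fold changes of 0.05, -0.24, 0.17 and 0.04 with adjusted p-values of 0.215 or more. Pdgfrb-positive cells were slightly deeper, with a median of 46904 UMIs against 42700 in Pdgfrb-negative cells. Of 8 mural or fibroblast markers, 5 were detected in Pdgfrb-positive cells and none at 10 CPM, with Rgs5, Vtn and Abcc9 at 0 there, and their sums were 5.86 and 8.88 CPM in Pdgfrb-positive cells, against 4.23 and 3.91 CPM in Pdgfrb-negative cells. The sums of 3 oligodendrocyte markers were 1.48 and 26.4 CPM in Pdgfrb-positive cells, against 2.08 and 1.84 CPM in Pdgfrb-negative cells, and those of 3 erythroid markers 17.5 and 10.6 CPM, against 326 and 149 CPM. Their part in these results was not tested.

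**Figure D3:**
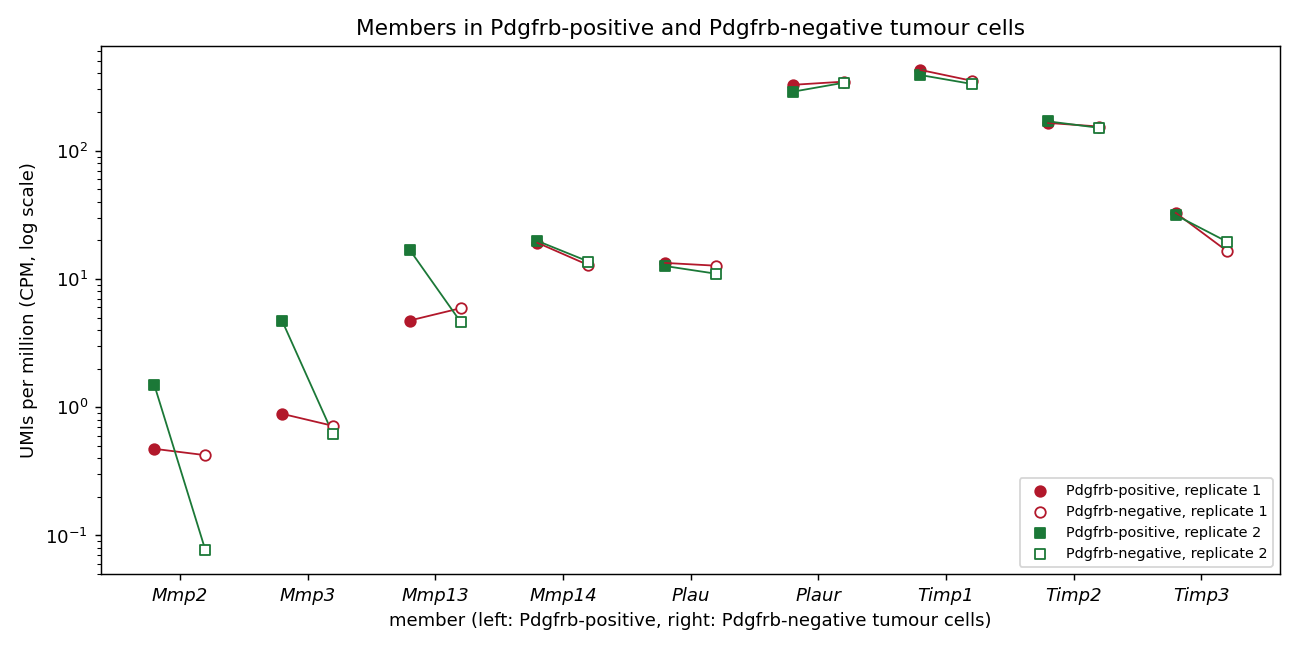
Level of each of the 9 genes (x axis) in CPM on a log scale (y axis), with Pdgfrb-positive tumour cells left and Pdgfrb-negative tumour cells right for each gene and points for replicates 1 and 2. Timp3 and Mmp14 are separated in both replicates, while Mmp3 is at 4.73 in Pdgfrb-positive cells of replicate 2 alone and below 1 in the other 3 points.

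Across single tumour cells the members fell into widely shared and rare ones. With each of 1752 tumour cells thinned to 10000 UMIs (64 shallower cells left out), Plaur was found in 87.0% (exact 95% interval 85.4 to 88.6; 94.8% unthinned), Timp1 in 83.9% (82.1 to 85.6; 94.5%) and Timp2 in 75.1% (73.0 to 77.1; 95.8%). Timp3 was found in 15.2% (13.5 to 16.9; 31.1% unthinned), Mmp14 in 14.0% (12.4 to 15.7; 43.7%) and Plau in 11.9% (10.4 to 13.5; 34%). Mmp13 was found in 3.37% (2.57 to 4.32; 7.43% unthinned), Mmp3 in 0.913% (0.523 to 1.48; 2.97%) and Mmp2 in 0.457% (0.197 to 0.898; 1.71%). The receptor and both soluble inhibitors were thus found in most tumour cells, and Timp3 and the proteases in a minority at this depth. T cells served as background. They had no Plaur or Timp1 UMI in 52 cells at a median of 5123 UMIs (44092 in tumour cells), which allows up to 5.77% of cells, and had Timp2 UMIs in 13.5% of cells. With cells of both gates thinned to 1000 UMIs, Timp2 was found in 14.4% of tumour cells (12.8 to 16.1), against 1.92% of T cells (0.0487 to 10.3). The tenth of tumour cells with most UMIs of a gene held 70.7% of Timp3, 55.1% of Plau, 46.9% of Mmp14, 37.1% of Timp1, 30.5% of Plaur and 27.1% of Timp2.

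Mmp3 and Mmp13 were found together. In all, 22 tumour cells held both, of 54 with Mmp3 and 135 with Mmp13. In thinned cells Mmp3 measured 13.3 and 27.6 CPM in the 30 and 29 cells with Mmp13, against 0.541 and 0.650 CPM in the rest. Without the top Mmp3 cell of each library it was still 6.90 and 14.3 CPM in cells with Mmp13. The cell with most Mmp3 UMIs of the series, in replicate 1, passed both the tumour gate (229 Nras UMIs) and the basophil gate (39 Mcpt8 UMIs) and was left out of the sums. It alone held 207 Mmp3 UMIs, 53.2% of the 389 in all cells kept, and 137 Mmp13 UMIs, 13.5% of 1012. It had 1 Pdgfrb UMI. Timp3 and Mmp14 were also found together to a lesser degree: Timp3 measured 45.6 and 54.1 CPM in thinned cells with Mmp14 (136 and 109 cells), against 25.4 CPM in the rest in each library, and 37.0 and 42.6 CPM without the top cell. Cells with Timp3 held 266 and 239 CPM of Plaur, against 338 and 311 CPM in cells without it. These are descriptions of cells within 2 libraries and carry no test.

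**Figure D4:**
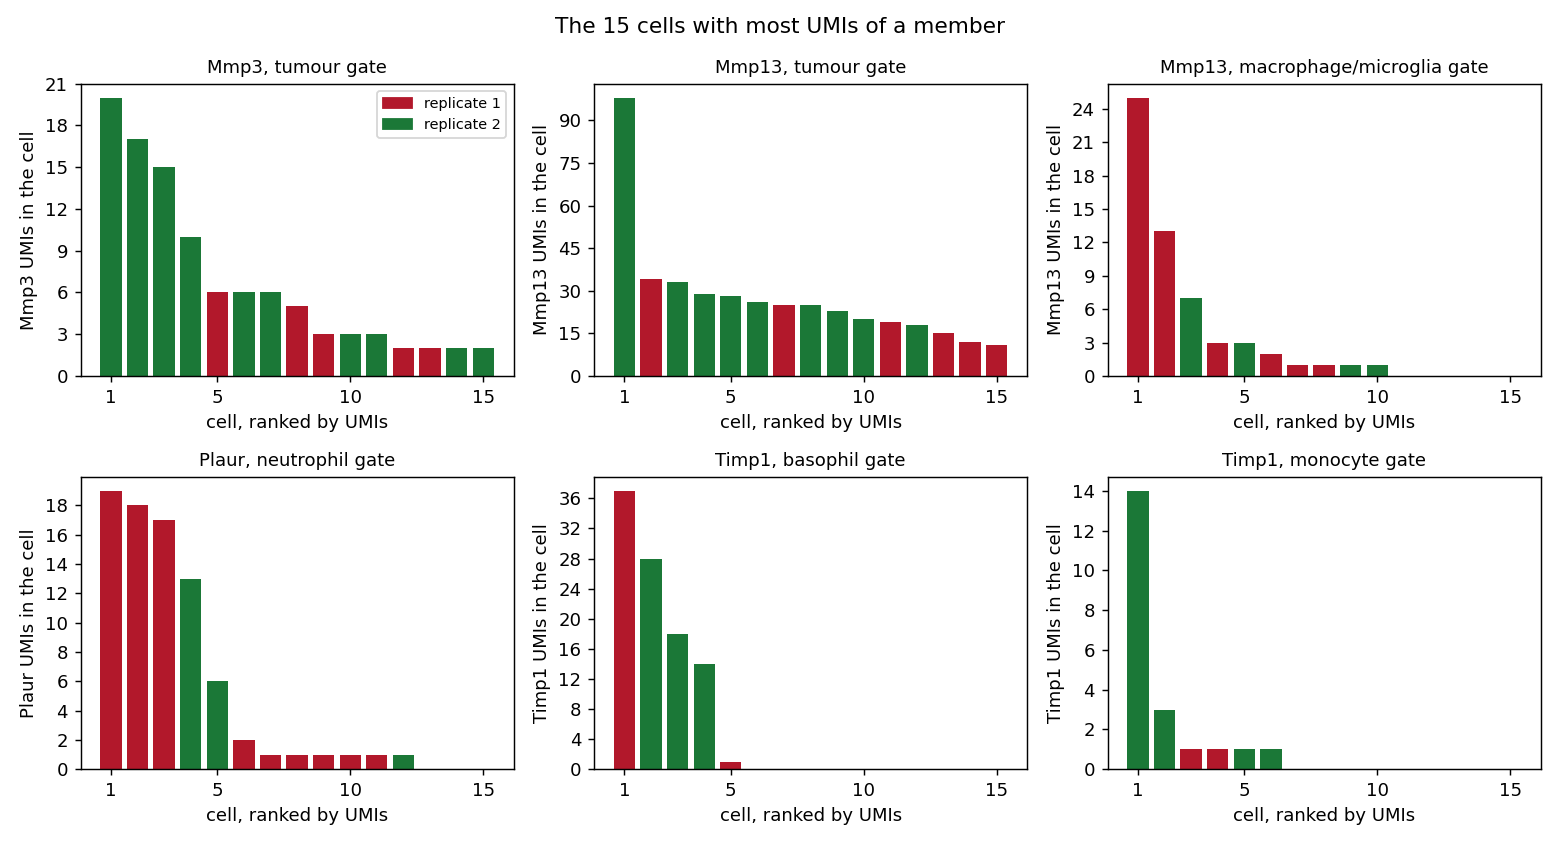
UMIs of a gene (y axis, linear from 0) in each of the 15 cells with most of them (x axis, ranked), for 6 pairs of gene and gate, with colours for replicates 1 and 2. Mmp3 and Mmp13 of tumour cells fall steeply from the first cells, and Timp1 of the basophil gate and Plaur of the neutrophil gate rest on 5 cells each.

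Tumour cells differed from monocytes in the inhibitors and in Mmp14. Of the 9 genes, 3 were called higher and 1 lower in tumour cells than in monocytes, where 35.3% of all genes were called (19.5% higher and 15.8% lower). The median log2 fold change was 2.36, or 1.13 with genes without monocyte UMIs at their limit, against 0.65 over all genes. Timp1 measured 377 and 355 CPM in tumour cells, against 8.18 and 52.5 CPM in monocytes, without overlap (log2 fold change 3.34 ± 0.26, adjusted p = 1.96e-35). Timp2 measured 158 CPM in each library of tumour cells, against 45 and 19.4 CPM in monocytes (2.36 ± 0.36, adjusted p = 3.84e-10), but the sign turned to -1.01 when cells of several gates were kept. Timp3 had no monocyte UMI and was at least 4.72-fold higher in tumour cells (adjusted p = 4.63e-05; DESeq2 0.382). Mmp14 was the 1 member lower in tumour cells, with 15.1 and 16.2 CPM, against 61.3 and 44.2 CPM in monocytes (-1.78 ± 0.36, adjusted p = 5.88e-06). Plaur, with 338 and 317 CPM in tumour cells against 303 and 257 CPM in monocytes, was not called (0.17 ± 0.21, adjusted p = 0.587). Plau had 2 monocyte UMIs, and the pooled tumour level was 3.73 times that of monocytes (95% counting interval 1.03 to 30.8; adjusted p = 0.118, or 0.0272 with RLE factors). Mmp13 was not called (1.13, adjusted p = 0.435). Mmp2 and Mmp3 had no monocyte UMI, and at up to 4.95 CPM allowed there no difference was detectable.

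Monocytes differed from macrophages/microglia in both the plasminogen branch and the inhibitors. Of the 7 members above the limit of 3 UMIs, 2 were called higher and 3 lower in monocytes, where 13.7% of all genes were called (5.62% higher and 8.04% lower), with a median log2 fold change of -2.14 against -0.23 over all genes. Plaur was higher, with 303 and 257 CPM in monocytes, against 80.0 and 73.2 CPM in macrophages/microglia (1.74 ± 0.24, adjusted p = 6.67e-12). Timp2 was lower, with 45 and 19.4 CPM in monocytes, against 930 and 1128 CPM in macrophages/microglia (-5.24 ± 0.32, adjusted p = 9.93e-59). Both were clear of overlap. Mmp2 had no monocyte UMI and was at least 5.47-fold lower (adjusted p = 0.000124; 0.0591 without monocyte replicate 2; DESeq2 0.502). Timp1 was called higher, with 8.18 and 52.5 CPM in monocytes, against 1.38 and 2.75 CPM in macrophages/microglia (3.93 ± 0.61, adjusted p = 4.58e-09), but 14 of the 19 UMIs of replicate 2 came from 1 cell and the call was lost without that library (adjusted p = 0.645) and with cells of several gates kept (0.566). Plau was called lower on 2 monocyte UMIs (-2.51 ± 0.90, adjusted p = 0.0333), and its call was lost without any 1 of the 4 sums (adjusted p 0.0698 to 0.359). Mmp14, at 61.3 and 44.2 CPM in monocytes against 69.4 and 52.6 CPM in macrophages/microglia, overlapped and was not called (-0.37 ± 0.32, adjusted p = 0.555), nor was Mmp13 (-2.14 ± 0.96, adjusted p = 0.122; -3.19 and 0.017 without macrophage/microglia replicate 2). The monocyte gate held 5202 and 1451 CPM of macrophage markers, whose part was not tested.

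Neutrophils, at 31 cells with a median of 2074 UMIs, were the shallowest gate. Of the 4 members above the limit, 2 were called higher and 1 lower in neutrophils than in monocytes, where 9.31% of all genes were called (2.11% higher and 7.2% lower). Their median log2 fold change was -0.25, or 0.57 with Mmp14 at its limit, against -1.11 over all genes. Plaur measured 1853 and 531 CPM in neutrophils (61 and 20 UMIs), against 303 and 257 CPM in monocytes (1.42 ± 0.29, adjusted p = 2.56e-05). Both neutrophil values lay above both monocyte values, but replicate 1 was far above replicate 2. Of the 81 UMIs, 73 came from 5 cells and 19 of the 31 cells had none, and the call was lost without neutrophil replicate 1 (0.37, adjusted p = 0.899). Timp2 measured 60.8 and 345 CPM in neutrophils (2 and 13 UMIs), against 45 and 19.4 CPM in monocytes (2.19 ± 0.61, adjusted p = 0.00632), and was not called without replicate 2 of neutrophils (adjusted p = 1) or of monocytes (0.203). Mmp14 had no neutrophil UMI and was at least 1.20-fold lower (adjusted p = 0.0482), a call that most alternatives removed. Timp1 was not called (-1.91 ± 1.32, adjusted p = 0.508). The neutrophil gate held 699 and 319 CPM of macrophage markers and 334 and 319 CPM of oligodendrocyte markers, whose part was not tested.

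The DC gate carried little of the system. Of 7 members above the limit, 1 was called higher and 6 lower in DCs than in macrophages/microglia, where 22.3% of all genes were called (9.91% higher and 12.4% lower). Their median log2 fold change was -4.42, or -2.30 with Mmp2 and Mmp13 at their limits, against -0.01 over all genes. Timp1 was the 1 called higher, with 26.0 and 14.5 CPM in DCs, against 1.38 and 2.75 CPM in macrophages/microglia (2.91 ± 0.75, adjusted p = 0.000716). Timp2 measured 29.7 and 21.7 CPM in DCs, against 930 and 1128 CPM in macrophages/microglia (-5.69 ± 0.33, adjusted p = 7.28e-65). Plaur measured 44.6 and 39.8 CPM in DCs, against 80.0 and 73.2 CPM in macrophages/microglia (-1.24 ± 0.36, adjusted p = 0.00313), and was called neither by DESeq2 (0.0684) nor without DC replicate 1 (0.0604). Mmp14 and Plau were called lower on 2 and 1 DC UMIs, with pooled levels in macrophages/microglia 16.6 (4.56 to 138) and 9.51 (1.66 to 380) times those in DCs. Mmp2 was at least 4.92-fold and Mmp13 at least 2.38-fold lower, but DESeq2 called neither (adjusted p = 0.488 and 0.15) and did not call Plau (0.0959). Without DC replicate 1, the calls of Timp1 (adjusted p = 0.13), Plau (0.156) and Mmp13 (0.0503) were lost, and that of Mmp13 also without DC replicate 2 (0.0956) or macrophage/microglia replicate 1 (0.186). The DC gate was not pure. It held 115 and 97.7 CPM of tumour markers, 160 and 188 CPM of B-cell markers and 234 and 3.62 CPM of T-cell markers. The part of such cells in these results, the Timp1 call among them, was not tested.

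Basophil-gated cells differed from macrophages/microglia in 6 of the 7 members above the limit, 2 called higher and 4 lower, where 27% of all genes were called (13.4% higher and 13.6% lower). Their median log2 fold change was -2.59, against -0.03 over all genes. Plaur measured 221 and 182 CPM in basophil-gated cells (201 ± 27, n = 2), against 80.0 and 73.2 CPM in macrophages/microglia, without overlap (1.28 ± 0.24, adjusted p = 5.14e-07). It stayed higher with a gate of at least 5 Mcpt8 UMIs (1.11, adjusted p = 0.00066), an alternative chosen after seeing the data. Timp1 measured 92.1 and 146 CPM in basophil-gated cells, against 1.38 and 2.75 CPM in macrophages/microglia (5.71 ± 0.39, adjusted p = 6.08e-47), but all 98 UMIs came from 5 of the 138 cells. Those 5 had 11088 to 126399 UMIs, 2 to 125 Nras UMIs and 1 to 3 Mcpt8 UMIs, and with at least 5 Mcpt8 UMIs required no Timp1 UMI was left. The other 133 cells had a median of 3200 UMIs, 158 CPM of Plaur and 30.3 CPM of Timp2. Timp2 over the whole gate measured 53.3 and 112 CPM, against 930 and 1128 CPM in macrophages/microglia (-3.78 ± 0.25, adjusted p = 1.68e-48). Mmp14 measured 7.27 and 14.6 CPM, against 69.4 and 52.6 CPM in macrophages/microglia (-2.59 ± 0.43, adjusted p = 1.67e-08). The part of the 5 cells with Timp1 in the Mmp14 level was not tested. Mmp2 was at least 7.43-fold lower (adjusted p = 3.35e-06), and DESeq2 did not call it (0.402). Mmp13 was called lower on 1 basophil UMI (-3.56 ± 1.10, adjusted p = 0.00508; pooled level in macrophages/microglia 10.8 times as high, 1.86 to 433), and not without basophil replicate 2 (0.207) or macrophage/microglia replicate 1 (0.41). Plau was not called (-0.96, adjusted p = 0.223).

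The 134 cells that passed both the tumour and the basophil gate, 112 of them with a single Mcpt8 UMI, were left out of all sums. They held 304 and 366 CPM of Timp1, 382 and 405 CPM of Plaur and 154 and 165 CPM of Timp2, near the tumour values. Their Timp3, at 7.32 and 12.2 CPM, lay below the 22.2 and 24.5 CPM of tumour cells, and no test was made. Their Mmp3, at 52.4 and 0.854 CPM, was high in replicate 1 through the cell with 207 UMIs.

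T cells had almost none of the 9 genes. Timp2 measured 7.73 and 58.3 CPM, Plau had 1 UMI, and the other 7 had none in 52 cells. With each cell of a gate thinned to 1000 UMIs, Plaur was found in 27.8% of tumour cells, 33.3% of 30 neutrophils, 17.2% of monocytes, 16.8% of basophil-gated cells, 6.86% of macrophages/microglia and no T cell. Timp2 was found in 14.4% of tumour cells and 60.0% of macrophages/microglia at this depth, and Timp1 in 24.8% of tumour cells.

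A list of 42 other genes of the pathway was compared in the same fits: other metalloproteinases, the plasminogen system, further inhibitors and partners, and the Adam and Adamts proteases. Between Pdgfrb-positive and Pdgfrb-negative tumour cells none of the 29 above the limit was called, at a background of 1.33%. Between tumour cells and macrophages/microglia 8 were higher and 12 lower of 35, with a median log2 fold change of 0.34 (0 with genes at their limits), against 0.19 over all genes. Plat, the tissue-type plasminogen activator, was higher, with 41.6 and 47.1 CPM in tumour cells, against 0.920 and 0 CPM in macrophages/microglia (2 UMIs; pooled ratio 96.6, 26.7 to 798; adjusted p = 1.86e-41). Tumour cells thus held more Plat than Plau per UMI counted (12.9 and 11.7 CPM). Adamts4, an aggrecanase, was at least 5.91-fold higher (3.93 and 4.21 CPM in tumour cells), Adam12 at least 4.85-fold (3.27 and 3.41 CPM) and the stromelysin Mmp10 at least 2.53-fold (1.89 and 1.58 CPM), all with no UMI in macrophages/microglia. The Mmp10 call was lost without either macrophage/microglia replicate (edgeR adjusted p = 0.19 and 0.136). The strongest in the other direction was Mmp12, macrophage elastase, with 0.105 and 0 CPM in tumour cells, against 85.5 and 78.7 CPM in macrophages/microglia (-10.35 ± 0.29). Adam8, a leukocyte protease, was also lower, with 3.0 and 2.45 CPM in tumour cells, against 106 and 80.1 CPM in macrophages/microglia (-5.27 ± 0.17, adjusted p = 1.4e-208). Mmp25 and Mmp8, proteases of leukocytes, were lower on a few UMIs, with pooled levels in macrophages/microglia 255 (37.7 to 1.09e+04) and 42.4 (6.08 to 469) times those in tumour cells. The Mmp8 call was lost without macrophage/microglia replicate 1 (edgeR adjusted p = 0.289).

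Against monocytes 4 of 34 list genes were higher and 9 lower in tumour cells, with a median of 1.33 (0 with genes at their limits) against 0.65 over all genes. The folds of the higher genes depended on the monocyte replicate. The matrix protein Sparc measured 175 and 173 CPM in tumour cells, against 4.09 and 69.1 CPM in monocytes, a log2 fold change of 1.96 that became 1.08 without monocyte replicate 1 and 5.56 without monocyte replicate 2. Plat had 41.6 and 47.1 CPM in tumour cells, against 0 and 11.1 CPM in monocytes (2.69, or 1.94 without monocyte replicate 1). Serpine2, an inhibitor of plasminogen activators, had 39.9 and 39.2 CPM in tumour cells, against 4.09 and 13.8 CPM in monocytes (1.94), and lost its call without monocyte replicate 1 (1.47, edgeR adjusted p = 0.0618). Mmp8 (neutrophil collagenase) had 57.3 and 33.2 CPM in monocytes and 2 UMIs in all tumour cells, and Mmp19 (-6.39, or -7.11 without monocyte replicate 1 and -5.12 without monocyte replicate 2), Adam8 (-4.27) and Adam19 (-2.80) were lower in tumour cells too. Adam19 had 4.09 and 22.1 CPM in monocytes and lost its call without monocyte replicate 2 (-0.88, edgeR adjusted p = 0.833). In monocytes against macrophages/microglia 7 of 22 were higher and 6 lower (median -0.53, or -0.43 with genes at their limits, against -0.23). S100a10 and Anxa2, which together form a surface receptor for plasminogen and Plat, were both higher. S100a10 measured 1026 and 1109 CPM in monocytes, against 15.2 and 14.6 CPM in macrophages/microglia (6.03 ± 0.28), and Anxa2 measured 1031 and 1056 CPM, against 67.6 and 69.6 CPM (3.80). Mmp8 (5.45) and Adam19 (4.26) were higher too, Adam19 not without monocyte replicate 2 (2.35, edgeR adjusted p = 0.769). Mmp12 was at least 16.6-fold lower in monocytes, and Sparc was lower by a log2 fold change of -4.30 (-3.42 without monocyte replicate 1, -7.90 without monocyte replicate 2). Adamts1 had no UMI in monocytes, against 4.60 and 15.1 CPM in macrophages/microglia. Its pooled level there put it at least 1.99-fold lower in monocytes, but replicate 1 alone lies under the 4.95 CPM that a count of 0 allows in monocytes, and the call was lost without macrophage/microglia replicate 2 (edgeR adjusted p = 0.388) and without monocyte replicate 1 (0.134) or 2 (0.449).

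In neutrophils Mmp9 (gelatinase B) led the list, with 729 and 1328 CPM in neutrophils (74 UMIs) and no UMI in monocytes, at least 212-fold higher (adjusted p = 9.17e-26). Adam8 measured 304 and 266 CPM in neutrophils, against 73.6 and 33.2 CPM in monocytes (1.88 ± 0.51, adjusted p = 0.00383), and Cd44, a matrix receptor, was higher by 1.13. The Adam8 call was lost without neutrophil replicate 1 (edgeR adjusted p = 0.0568) or 2 (0.0929) or monocyte replicate 2 (0.0598), and the Cd44 fold was under the threshold without neutrophil replicate 1 (0.88) or monocyte replicate 1 (0.79). With S100a10 (3 neutrophil UMIs), Lrp1 and Adam15 lower (Adam15 not without either neutrophil replicate, edgeR adjusted p = 0.153 and 0.245), 3 of 19 were called in each direction (median -1.32, or -0.13 with genes at their limits, against -1.11). In DCs 6 of 23 were higher and 11 lower than in macrophages/microglia (median -1.81, or -1.09, against -0.01). Adam19 measured 85.4 and 83.3 CPM in DCs, against 0.920 and 0.458 CPM in macrophages/microglia (6.53), and the leukocyte protease Mmp25 96.6 and 61.5 CPM, against 3.68 and 1.83 CPM (4.47 ± 0.73). S100a10 (5.06) was higher in DCs too, as was Plat, with 74.3 and 18.1 CPM in DCs, against 0.920 and 0 CPM in macrophages/microglia (6.23, or 4.79 without DC replicate 1 and 7.07 without DC replicate 2). Mmp9 was called higher on 4 UMIs, all in DC replicate 2 (0 and 14.5 CPM), and was not called without that library or without macrophage/microglia replicate 2 (edgeR adjusted p = 0.0895). Mmp12, Adam15, Sparc and the clearance receptor Lrp1 were lower in DCs. In basophil-gated cells 5 of 21 were higher and 10 lower (median -1.55, or -0.47, against -0.03). Furin, a convertase that activates Mmp14 among others, measured 1311 and 1060 CPM in basophil-gated cells, against 57.9 and 65.5 CPM in macrophages/microglia (4.16 ± 0.22, adjusted p = 2.93e-75). S100a10 (5.93) and Anxa2 (3.03) were higher. Plat was higher too, with 7.27 and 36.5 CPM in basophil-gated cells (18 UMIs). Its log2 fold change was 5.40, or 6.02 without basophil replicate 1 and 3.94 without basophil replicate 2. The gate includes the 5 cells with Timp1, which had up to 126399 UMIs, up to 125 Nras UMIs and at most 3 Mcpt8 UMIs. Their part in the S100a10, Anxa2 and Plat levels was not tested. Mmp12, Lrp1 and Sparc were lower, as was Adamts1, which lost its call without basophil replicate 2 (edgeR adjusted p = 0.154) or macrophage/microglia replicate 2 (0.173). The plasminogen gene Plg had 1 UMI over all gates.

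The chromosome 9 cluster was divided among gates. Mmp3 and Mmp10 were found in tumour cells and, on 3 and 1 UMIs, in basophil-gated cells, Mmp13 mainly in tumour cells and macrophages/microglia, Mmp12 mainly in macrophages/microglia, and Mmp8 in neutrophils (213 and 186 CPM, 14 UMIs) and monocytes.

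**Figure D5:**
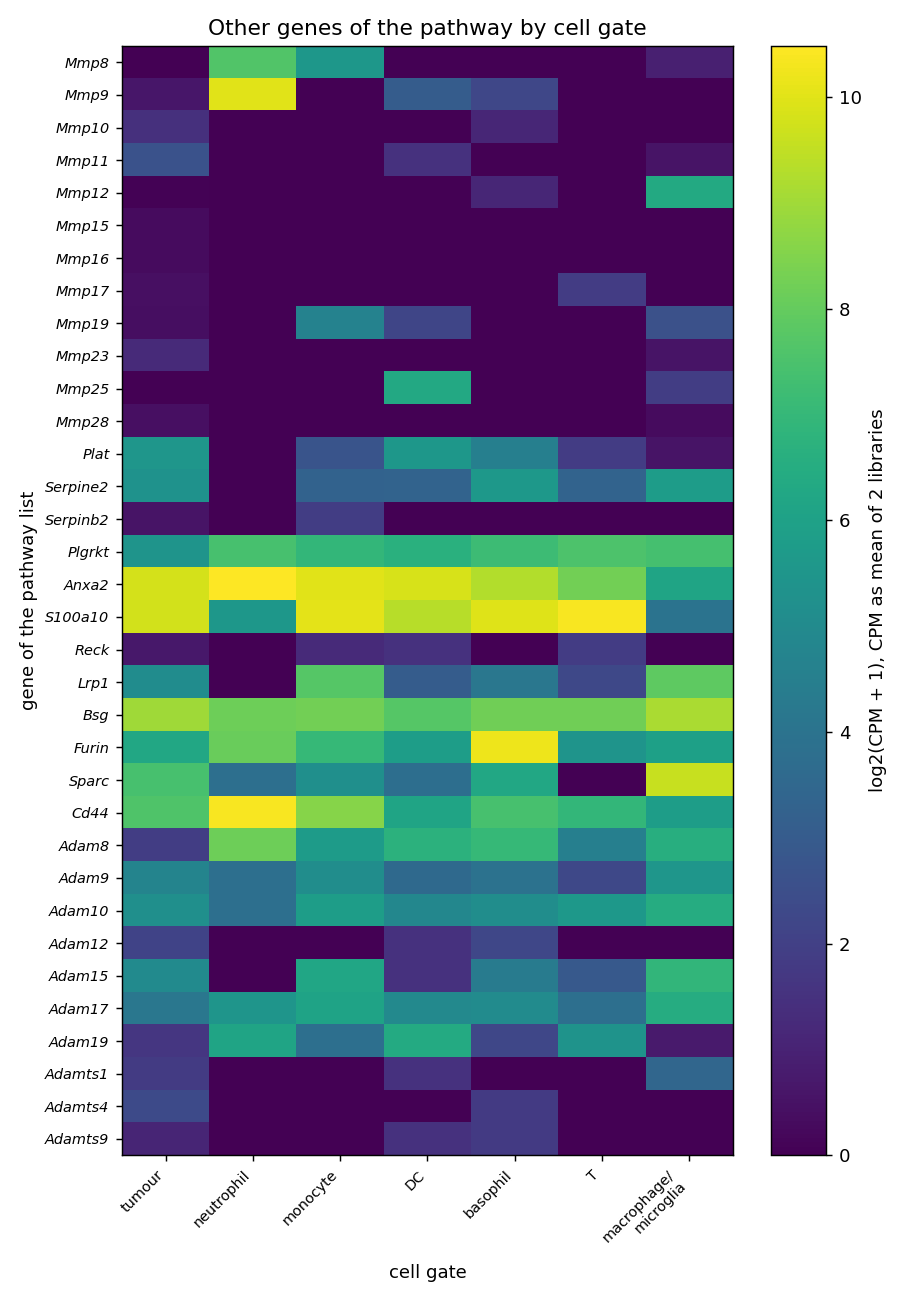
Level of other genes of the pathway (y axis) in each cell gate (x axis), coloured by log2(CPM + 1) with CPM as the mean of 2 libraries. Mmp9 is bright in neutrophils, Mmp12 in macrophages/microglia, Mmp25 in DCs and Furin in basophil-gated cells, while Plat is dark in macrophages/microglia and neutrophils.

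Genes with the pattern most like each member were ranked by Pearson's r of log2(CPM + 1) over the 16 sums (8 gates in 2 libraries) among 13083 genes. The points share libraries and differ in depth by gate, so r is a description. Mmp2 was most like Sgce (0.994), Sh3bgr (0.993) and Gm32591 (0.991), Mmp3 like Adamts12 (0.959), Ssc5d (0.955) and Gm10371 (0.952), and Mmp13 like Zfp763 (0.929), Rsph3b and Azin2. Mmp14 had Plxnb2 and Gamt among the 3 most like it. Plau was most like Pomk (0.906), and Plaur like Rab31 (0.972), Tnfaip2 (0.939) and Ppard (0.931). Timp1 was most like Asns (0.955), Tinagl1 (0.940) and Htra1 (0.930), Timp2 like Hsbp1 (0.931), P4ha1 (0.878) and Tmem59 (0.840), and Timp3 like Twist2 (0.959), Cd109 (0.955) and 1110046J04Rik (0.955).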

How the data were processed

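Per the labels' protocols, the authors ran Cell Ranger 3.1 (STAR alignment to mm10, barcode filter, UMI counting), and the deposited values are raw counts per gene and barcode. A step that pools runs and equalises their depth is described too, yet the 2 libraries have unequal totals, and no correction was made here. The gene annotation is not given in the sources used here, and positions come from GENCODE M21.

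Cells needed at least 200 genes and at most 15% mitochondrial UMIs, which removed 964 and 820 barcodes. Cells of several gates (237) or none (331) were left out of the sums; no doublet caller was applied in the main sums, and scrublet (expected rate 0.04) called 11 and 3 cells as an alternative. Raw counts were summed per library and gate, and genes with at least 10 UMIs in at least 2 sums entered 1 edgeR quasi-likelihood fit of 14 sums (7 gates, 6 residual degrees of freedom), or of 16 sums with the tumour gate split (7 degrees of freedom), with TMM factors. Both libraries hold every gate, so the library pairs the sums and is a block in the fit. All gates share 1 estimate of the spread. The SE given with a log2 fold change is its absolute value divided by the square root of the quasi-likelihood F statistic. It does not show how far apart the libraries lie. CPM is a gene's UMIs over all UMIs of the gate, times 1000000, and intervals are exact at 95%. Shares of cells were compared after thinning each cell to 1000 or, within the tumour gate, 10000 UMIs, with shallower cells left out.

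All 9 members are named in each comparison; of the 42 genes of the pathway list, up to 4 called genes with the largest fold each way. A few genes that these rules name are not reported here; counts over the list include them. The members, lists and comparisons were chosen with earlier results of these data known. Alternatives were other gates, filters, scalings, DESeq2, no block and each sum left out; the fit was tested on simulated counts. Versions were Python 3.11.15, numpy 2.4.6, scipy 1.17.1, pandas 2.3.3, scanpy 1.11.5, matplotlib 3.10.9, R 4.3.3, edgeR 4.0.16 and DESeq2 1.42.0.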

Additional observations from a re-analysis of the deposited data

Results flagged for a closer look

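Signal of all 9 genes was found in the 331 cells that passed the cell filter but no gate, which entered no comparison. Over both libraries these cells held 1.06 CPM of Mmp2, 1.06 CPM of Mmp3, 8.01 CPM of Mmp13, 21.5 CPM of Mmp14, 11.3 CPM of Plau, 192 CPM of Plaur, 272 CPM of Timp1, 160 CPM of Timp2 and 36.4 CPM of Timp3, each above the 0.453 CPM that a count of 0 allows. All 7 Mmp2 UMIs were in replicate 2 (0 and 2.84 CPM). Timp1 and Timp3 had levels nearer to those of tumour cells (366 and 23.4 CPM as library means) than to those of macrophages/microglia, and the tumour markers summed to 585 and 561 CPM. Erythroid markers summed to 4318 and 4819 CPM and oligodendrocyte markers to 416 and 811 CPM in these cells, and their part was not tested.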

How the results depend on the processing

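Over the alternatives, 915 values of single members kept their direction and side of the threshold, 73 lost a call, 8 gained one, 15 untested values moved and 18 reversed; of the summary values 233 stayed within 1.5 times or the spread and 38 moved.

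Counting a cell in every gate it passes turned the log2 fold change of Mmp2 (-3.74) and Timp2 (-1.01) in tumour cells against monocytes, Mmp14 in monocytes against macrophages/microglia (0.15), Timp1 in neutrophils against monocytes (0.29), and Plaur in DCs (0.44) and Mmp13 in basophil-gated cells (0.31), both against macrophages/microglia. It left 3 members and 1084 genes called in monocytes against macrophages/microglia (5 and 1840 in the main fit), 0 and 361 in neutrophils against monocytes (3 and 1255), 4 members in DCs (7), and 5953 genes in basophil-gated cells (3644). The library block pairs the gates; with no replicate block 1 member was called in the Pdgfrb split (2 with it), and no other count of calls moved by over 1.5 times. The stricter filter of edgeR (filterByExpr), under which fewer members are tested, left 0 members and 53 genes called in the Pdgfrb split (2 and 174 in the main fit), 4 members and 3982 genes in tumour cells against macrophages/microglia (8 and 6306), 3 members in monocytes and 4 in DCs. DESeq2 called 0 members and 39 genes in the Pdgfrb split, 4 members in tumour cells, 3 in monocytes and 3 in DCs, each of these 3 against macrophages/microglia. With at least 2 Pdgfrb UMIs, 4 members and 275 genes were called. Leaving out barcodes with 0 Malat1 UMIs turned Mmp13 in tumour cells against macrophages/microglia (0.18). Requiring 5 Mcpt8 UMIs for the basophil gate, chosen after seeing the data, turned Timp1 in basophil-gated cells (-7.04, with no UMI left) and Plau in the Pdgfrb split (-0.032). The other alternative chosen after seeing the data kept cells of the tumour gate as tumour whatever other gate they passed. Without the protease with most UMIs in the sum, the protease to Timp ratio was 0.040 in tumour cells, 0.0558 in macrophages/microglia and 0.103 in monocytes.

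With 1 sum left out, the Pdgfrb split called 0 to 3 members and 68 to 96 genes. The remaining lone sum is assumed to vary like the other gates. In that split Timp2 ran from -0.11 to 0.19 (negative without Pdgfrb-positive replicate 1, at -0.08, and without Pdgfrb-negative replicate 2), Plau from -0.028 (without Pdgfrb-negative replicate 2) to 0.11, and Mmp13 from -0.55 (without Pdgfrb-positive replicate 2) to 1.96. Tumour cells against macrophages/microglia called 5 to 7 members, and Mmp13 ran from -2.01 to 0.66, with 0.58 without tumour replicate 1 and 0.66 without macrophage/microglia replicate 1; its log2 ratio of CPM means was -1.91 without replicate 2 and 0.83 without replicate 1. Against monocytes Mmp13 ran from -0.034 (without tumour replicate 2) to 8.72 (without monocyte replicate 2, with no monocyte UMI left). Monocytes against macrophages/microglia called 2 to 5 members and 1027 to 1394 genes, neutrophils against monocytes 1 to 2 members and 564 to 1146 genes, with Timp1 from -11.12 (without neutrophil replicate 1, with no neutrophil UMI left) to 0.26 (without monocyte replicate 2), and DCs 3 to 7 members. The cause of these changes was not tested unless named. Depth limits the neutrophil and T gates most, where a count of 0 allows 42.5 and 9.43 CPM.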
